A study of Mus musculus with 4 samples.

Results

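Antigen presentation was followed through 10 of 18193 genes named on short-oligonucleotide arrays of the mouse adrenal gland: H2-K1, H2-D1 and B2m of MHC class I, Tap1, Tapbp, Psmb8 and Psmb9 of the peptide supply, and H2-Aa, H2-Ab1 and Cd74 of MHC class II. All probe sets whose annotation named exactly 1 of these genes were taken, which gave 32 of 45037 probe sets. The glands came from male V1a knockout mice (KO, 2 arrays) and male wild-type mice (WT, 2 arrays), all 2 months old. V1a is the vasopressin receptor encoded by Avpr1a, and the series sets adrenal RNA without it beside that of wild-type glands. The sources used here give neither the strain, nor the deleted part of Avpr1a, nor the number of animals behind an array. The p-values therefore describe the spread between arrays, which may be technical.

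MHC class I molecules show peptides from inside the cell to cytotoxic T cells and are made by nearly all nucleated cells. Their peptides are cut by the proteasome, which interferon can refit with immunoproteasome subunits, carried into the endoplasmic reticulum by the TAP transporter and loaded with the help of tapasin. MHC class II molecules show peptides from endosomes to helper T cells and belong mainly to macrophages, dendritic cells and B cells.

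Values are log2 expression units per probe set, and differences are KO minus WT. Testing was limited to probe sets with 2 or more arrays at 4 log2 units or above. This held for 22 of the 32, with at least 1 for each of the 10 genes, against 17228 of all 45037. Of these 22, 4 had a plain ID (ending in _at after the digits) and 18 an extended suffix: 5 ended in _a_at, 2 in _s_at and 11 in _x_at. Extended suffixes mark probe sets whose probes can be read by more than 1 transcript, and H2-K1 and H2-D1 are close copies of each other, so readings with the _x_at suffix may not belong to the named gene alone. Probe sets of 1 gene share their RNA and are not replicates. The other 10 of the 32 read between 2.30 and 3.53 on every array, near the array floor of 2.30: 5 of H2-D1, 3 of Tap1 and 1 each of Tapbp and Psmb8.

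WT array 1 stood apart from the other 3. Across tested probe sets it correlated with them at 0.919 to 0.924, while the KO arrays correlated with each other at 0.986 and with WT array 2 at 0.974 and 0.981. Probe sets, the points of these correlations, are not independent replicates. On each array 37.7% to 38.0% of probe sets reached 4 log2 units. Avpr1a read 2.31 to 2.60 on all 4 arrays, near the floor in both genotypes, and so does not check the genotype labels. Cortex and medulla markers were high on all arrays, with 8 of 8 and 6 of 6 tested. Values without it stand beside the results that it moves.

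None of the 22 probe sets passed an adjusted p of 0.05 in limma, adjusted by Benjamini-Hochberg over all 17228 (0% called), and their adjusted p lay between 0.794 and 0.999. At an unadjusted p under 0.05, 2 of the 22 passed, an H2-K1 and a Tap1 probe set, beside 5.14% of all tested. The stricter unadjusted rule, p under 0.01 together with a 2-fold or larger difference, was met by 0 of the 22, beside 0.836% of all tested. An exact permutation test of 2 arrays against 2 cannot give a two-sided p below 0.333. The differences that follow are therefore measured values, none of which passed the adjusted test. Lower RNA in a whole gland can come from fewer cells of a type or from less RNA per cell, which these arrays cannot tell apart.

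Class I heavy chains gave mostly lower KO readings, most evenly in H2-K1. H2-K1 and H2-D1 encode heavy chains that hold the peptide. Their promoters are shown because H2-K1 and H2-D1 share nearly the same upstream sequence. Whether this likeness bears on their readings was not tested. Of the 10 genes, 8 had a window in the RefSeq promoter table of GRCm38.p6 (250 bases before to 50 after each start), and H2-Ab1 and Cd74 did not. Where a gene had several starts, the most downstream one was used for the printed stretch. A gene was counted as holding a motif if any of its windows held it, while the shares over the table are per window. Capitals mark the kappaB motif GGGATTCCC and the Y box ATTGG (inverted CCAAT), searched on both strands, and the motifs do not overlap here. The 120 bases below start 11 bases before each kappaB match and lie at chr17:34000349-34000468, minus strand, for H2-K1 and at chr17:35262913-35263032, plus strand, for H2-D1. Relative to the start used they span -135 to -16 for H2-K1 and -181 to -62 for H2-D1.
H2-K1: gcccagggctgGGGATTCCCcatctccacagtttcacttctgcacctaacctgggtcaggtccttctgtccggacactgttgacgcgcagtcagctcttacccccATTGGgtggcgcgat
H2-D1: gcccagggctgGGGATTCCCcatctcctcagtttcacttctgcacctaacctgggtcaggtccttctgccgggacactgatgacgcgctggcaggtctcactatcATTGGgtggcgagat
The stretches were identical at 108 of 120 bases (90%). The kappaB motif was present in 0.353% of 32851 promoter windows of the same table and in 2 of the 8 genes' windows, those of H2-K1 and H2-D1. The Y box was present in 37.4% of all windows and in 7 of the 8.

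The H2-K1 probe set 1425336_x_at read 10.83 and 10.92 on the KO arrays, against 11.89 and 11.43 on the WT arrays. The KO readings lay close together and below both WT readings. The difference was -0.78 (SE 0.23), or 1.72-fold lower in KO, with an adjusted p of 0.794 in limma, and leaving out WT array 1 made it -0.55.

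A second H2-K1 probe set, 1450534_x_at, read 5.38 and 5.82 in KO, against 6.13 and 5.98 in WT, a difference of -0.45 (SE 0.23). The third, 1451931_x_at, read 10.53 and 10.57 in KO, against 11.02 and 10.71 in WT, a difference of -0.32 (SE 0.19). The fourth, 1427746_x_at, read 9.41 and 9.45 in KO, against 9.51 and 9.91 in WT, a difference of -0.28 (SE 0.21). In all 4 both KO arrays were below both WT arrays, and WT array 1 was the higher WT array in 3 of them. The 4 differences ran from -0.55 to -0.16 without WT array 1, and from -1.02 to -0.075 without WT array 2.

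H2-D1 differences ran from -0.28 to 0.24, overlapping those of H2-K1, and the genes were not tested against each other. Its plain probe set 1426324_at read 6.08 and 6.19 in KO, against 6.26 and 6.30 in WT, a difference of -0.15 (SE 0.16), with all 4 readings within a narrow band. The probe set 1425545_x_at read 11.50 and 11.46 in KO, against 12.04 and 11.49 in WT, a difference of -0.28 (SE 0.25). Here WT array 2 read almost the same as the KO arrays, and the difference was -0.0095 without WT array 1.

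The H2-D1 probe set 1451784_x_at read 11.25 and 11.24 in KO, against 11.67 and 11.26 in WT, and its difference of -0.22 (SE 0.21) became -0.016 without WT array 1. The fourth, 1451683_x_at, went the other way, with 8.47 and 8.57 in KO, against 8.04 and 8.52 in WT, a difference of 0.24 (SE 0.24) and of -0.0042 without WT array 1. WT array 1 was thus the highest array on 2 H2-D1 probe sets and the lowest on 1, and without it the 4 differences ran from -0.17 to -0.0042.

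B2m encodes beta-2-microglobulin, the light chain that every classical class I molecule needs to reach the surface. Its 2 probe sets are both of the _a_at kind, which on this array means alternative transcripts of 1 gene. The first, 1452428_a_at, read 12.05 and 12.04 in KO, against 12.56 and 12.26 in WT, a difference of -0.36 (SE 0.19). The second, 1449289_a_at, read 12.47 and 12.47 in KO, against 12.25 and 12.68 in WT, a difference of 0.0082 (SE 0.22).

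The KO arrays agreed closely on each B2m probe set, while the order of the WT arrays was opposite between them. The differences were -0.21 and -0.205 without WT array 1, and -0.52 and 0.22 without WT array 2. The stretch before the B2m start at chr2:122147527-122147646, plus strand, is shown for comparison with the heavy chains: its capitals mark a match to GAAANNGAA, the core of the interferon-stimulated response element, and a Y box.
B2m: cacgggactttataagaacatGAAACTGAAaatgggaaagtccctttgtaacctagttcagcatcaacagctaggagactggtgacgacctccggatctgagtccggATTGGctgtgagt
The response element core was found in 8.56% of all promoter windows and, in these letters and among the 8 genes, in B2m only. Other forms of this element were not searched, so the heavy chain windows are not shown to lack one. The letters GGGATTCCC were not found in this window, and other forms of the kappaB motif were not searched.

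**Figure D1:**
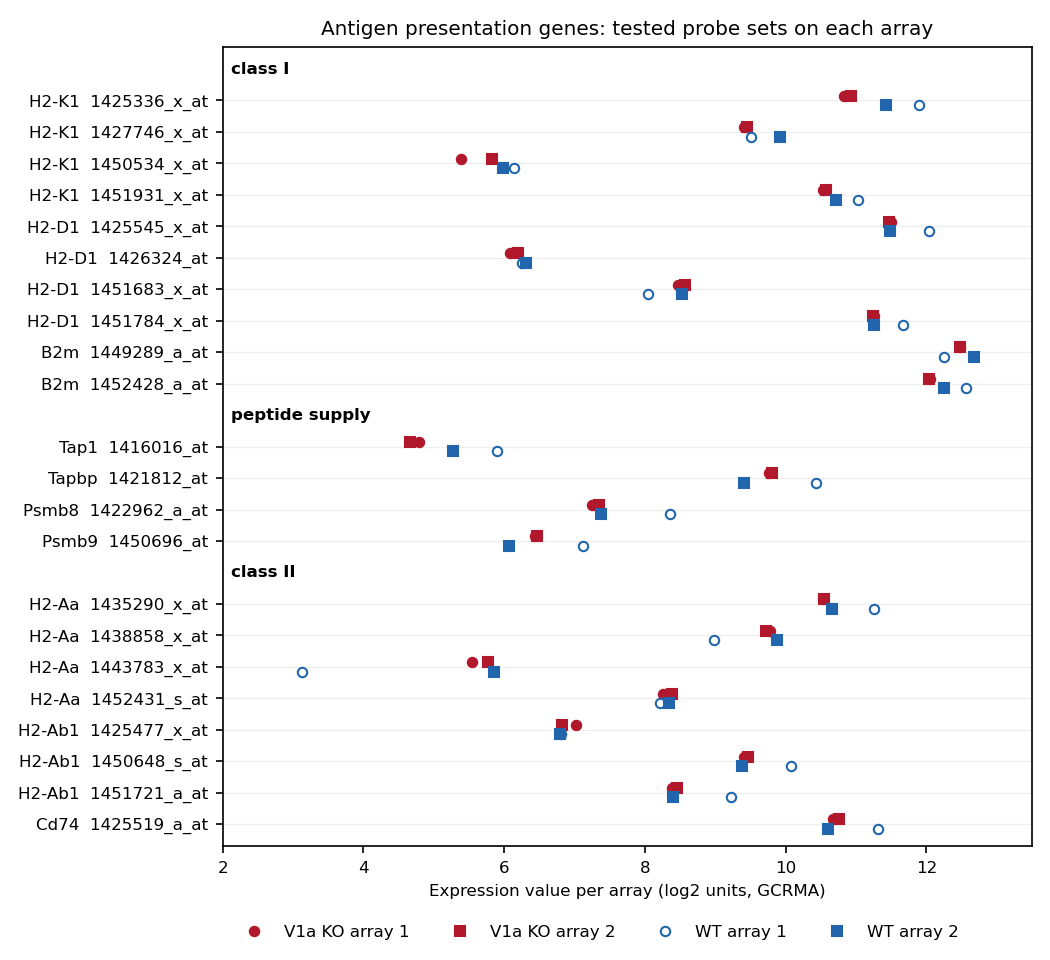
Log2 expression value (x axis) of the 22 tested probe sets of the 10 genes (rows, grouped by role) on each V1a KO array (red, upper points) and each WT array (blue, lower points, WT array 1 open), 1 point per array. In several rows the KO points and WT array 2 lie close together with WT array 1 away from them, as in Psmb8 with 7.24 and 7.35 in KO, against 8.36 and 7.37 in WT, while the H2-K1 rows have both KO points left of both WT points.

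Among the peptide supply genes Tap1 gave the largest difference, and the others rested on WT array 1. Tap1 encodes a subunit of the TAP peptide transporter. Its plain probe set 1416016_at read 4.79 and 4.65 in KO, against 5.90 and 5.27 in WT. Both KO readings were below both WT readings, close to the filter of 4 log2 units. The difference was -0.87 (SE 0.28), or 1.82-fold lower in KO, with an adjusted p of 0.794 in limma. It was -0.55 without WT array 1 and -1.18 without WT array 2, and the other 3 Tap1 probe sets, at most 2.42, gave no usable reading.

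Psmb9 encodes an immunoproteasome subunit and lies head to head with Tap1, so that both are read from 1 short shared stretch. Its plain probe set 1450696_at read 6.44 and 6.46 in KO, against 7.12 and 6.07 in WT. The KO arrays lay between the WT arrays. The difference was -0.15 (SE 0.42), and it was 0.38 without WT array 1 and -0.67 without WT array 2. WT array 1 was the highest array for both Tap1 and Psmb9, but WT array 2 was above the KO arrays for Tap1 and below them for Psmb9. The 225 bases between the RefSeq starts, chr17:34187331-34187555 of GRCm38.p6, are shown on the Tap1 strand because 1 sequence serves both genes. Read from the other strand they are the same bases before the Psmb9 start.
Tap1 and Psmb9: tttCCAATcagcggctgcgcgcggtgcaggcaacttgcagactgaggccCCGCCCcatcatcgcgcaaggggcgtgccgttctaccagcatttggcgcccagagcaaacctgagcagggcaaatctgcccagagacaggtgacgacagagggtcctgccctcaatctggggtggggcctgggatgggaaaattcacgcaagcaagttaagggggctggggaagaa
Capitals mark a Y box and a GC box (GGGCGG), both on the Psmb9 strand, and they do not overlap. A GC box was present in 35.7% of all windows and in the windows of Tap1, Psmb9 and Tapbp. The interferon gamma-activated site TTCNNNGAA, found in 8.30% of all windows, was not in this stretch in these letters. Among the 8 genes it was found in the Psmb8 window only.

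Psmb8, another immunoproteasome subunit next to Tap1, read 7.24 and 7.35 in KO on 1422962_a_at, against 8.36 and 7.37 in WT. WT array 2 lay just above the KO arrays and WT array 1 far above them. The difference of -0.57 (SE 0.39) became -0.077 without WT array 1 and -1.06 without WT array 2.

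Tapbp encodes tapasin, which holds empty class I molecules at the TAP transporter. Its plain probe set 1421812_at read 9.77 and 9.81 in KO, against 10.44 and 9.41 in WT, so the KO arrays again lay between the WT arrays. The difference was -0.13 (SE 0.40), and it was 0.38 without WT array 1 and -0.65 without WT array 2. The 2 WT arrays differed by 1.02 for Tapbp, 1.06 for Psmb9 and 0.99 for Psmb8, and the 2 KO arrays by at most 0.11 for these genes.

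Class II genes showed no shared direction. H2-Aa and H2-Ab1 encode the alpha and beta chains of I-A, and Cd74 the invariant chain that guards their groove until the endosome. Cd74 read 10.67 and 10.76 in KO on 1425519_a_at, against 11.32 and 10.61 in WT, a difference of -0.25 (SE 0.30). The groups overlapped, since WT array 2 was the lowest of the 4, and the difference was 0.11 without WT array 1.

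H2-Aa was read by 4 probe sets that did not go together. The probe set 1435290_x_at read 10.53 and 10.54 in KO, against 11.25 and 10.66 in WT, a difference of -0.42 (SE 0.26), with WT array 1 the highest. The probe set 1438858_x_at read 9.78 and 9.72 in KO, against 8.99 and 9.88 in WT, a difference of 0.31 (SE 0.36), with WT array 1 the lowest.

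The dimmest H2-Aa probe set, 1443783_x_at, read 5.54 and 5.77 in KO, against 3.12 and 5.86 in WT, a difference of 1.17 (SE 1.01), again with WT array 1 the lowest. On 1452431_s_at the 4 readings were 8.26 and 8.39 in KO, against 8.21 and 8.34 in WT, a difference of 0.05 (SE 0.17). The 4 H2-Aa differences were -0.20 to -0.012 without WT array 1. Its stretch at chr17:34287844-34287963, minus strand, is shown for comparison with the class I promoters, with a Y box in capitals.
H2-Aa: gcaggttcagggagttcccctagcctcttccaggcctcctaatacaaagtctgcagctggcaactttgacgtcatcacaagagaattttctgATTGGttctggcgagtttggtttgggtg
The kappaB letters searched in H2-K1 and H2-D1 were not in the H2-Aa window, and other forms of the motif were not searched.

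H2-Ab1 gave 2 probe sets with WT array 1 highest and 1 with nearly equal WT arrays. The probe set 1451721_a_at read 8.38 and 8.46 in KO, against 9.23 and 8.40 in WT, a difference of -0.39 (SE 0.34). The probe set 1450648_s_at read 9.41 and 9.47 in KO, against 10.08 and 9.38 in WT, a difference of -0.29 (SE 0.30). Both had the KO arrays at the level of WT array 2, and without WT array 1 the differences were 0.020 and 0.057. The third, 1425477_x_at, read 7.02 and 6.82 in KO, against 6.81 and 6.80 in WT, a difference of 0.12 (SE 0.17), and was the 1 tested probe set of the 22 with both KO arrays above both WT arrays.

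**Figure D2:**
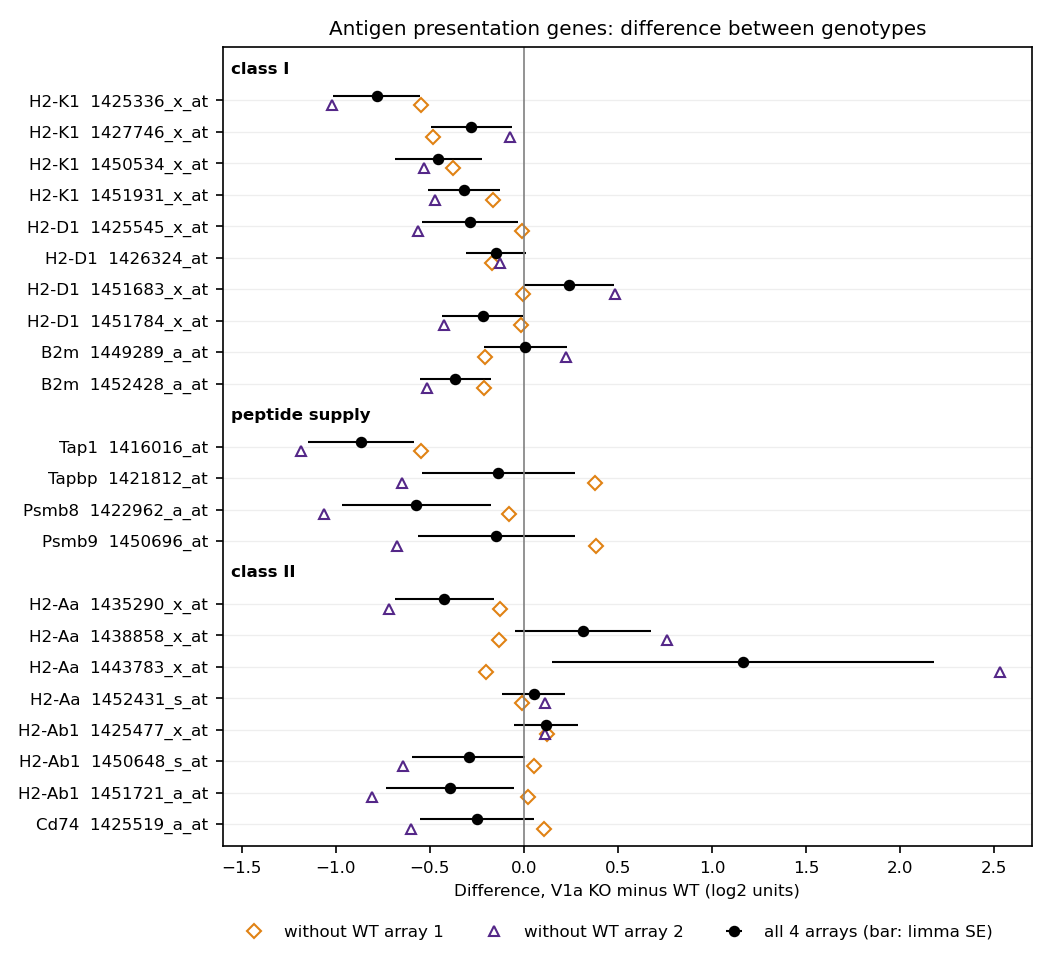
Difference in log2 units, V1a KO minus WT (x axis), for the 22 tested probe sets (rows): black circles use all 4 arrays with limma's standard error as the bar, orange diamonds leave out WT array 1 and purple triangles leave out WT array 2. The diamonds lie nearer 0 than the triangles for most rows. The 4 H2-K1 rows and Tap1 stay left of 0 under both, and so do Psmb8 and some rows of H2-D1, B2m and H2-Aa.

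By kind of probe set, the 4 plain ones (H2-D1, Tap1, Tapbp and Psmb9) all had a lower KO mean, beside 55.5% of all 11738 tested plain probe sets. Their median difference was -0.15, beside -0.04 over all of this kind. The plain median was 0.10 without WT array 1, beside 0.04 over all tested plain probe sets. In that setting 2 of the 4 were lower, beside 5126 of 11738. Both KO arrays lay below both WT arrays in 2 of the 4 (50%), beside 19.6% of all tested plain probe sets, and above them in 0, beside 16.3%.

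Of the 18 extended-suffix probe sets 12 had a lower KO mean, beside 53% of all 5490 of this kind. Their median difference was -0.28, beside -0.02 over all of this kind. Without WT array 1 the median was -0.10, beside 0.03 over all, and 14 of 18 were lower, beside 2441 of 5490. Both KO arrays lay below both WT arrays in 8 of the 18 (44.4%), beside 20.8% of all tested extended probe sets, and above them in 1, beside 19.8%. These 8 come from only 5 genes, and 4 of them are the overlapping H2-K1 readings.

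By role, both KO arrays were below both WT arrays in 7 of 10 class I, 2 of 4 peptide supply and 1 of 8 class II probe sets, in the last case the H2-Aa probe set 1435290_x_at. Over all tested probe sets this share was 20%, and the share with both KO arrays above both WT arrays was 17.4%, against 1 of the 22. The medians were -0.28, -0.36 and -0.10 over the 3 roles, against -0.04 over all tested probe sets. Without WT array 1 they were -0.19, 0.15 and 0.0041, against 0.04. In that setting all 10 class I probe sets were below WT array 2 by their KO mean, from -0.55 to -0.0042, along with 2 of 4 for the peptide supply, 4 of 8 for class II and 7567 of all 17228 tested. Differences between the roles were not tested.

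The spread within WT exceeded that within KO. The 2 WT arrays differed by a median of 0.52 in size over the 22 probe sets and the 2 KO arrays by 0.07, beside 0.44 and 0.15 over all tested probe sets. WT array 1 was the highest of the 4 arrays on 14 of the 22 (63.6%) and the lowest on 5 (22.7%), beside 47.1% and 26.9% of all tested. The gap between WT arrays was larger than that between KO arrays in 19 of the 22, beside 13050 of all 17228 tested.

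**Figure D3:**
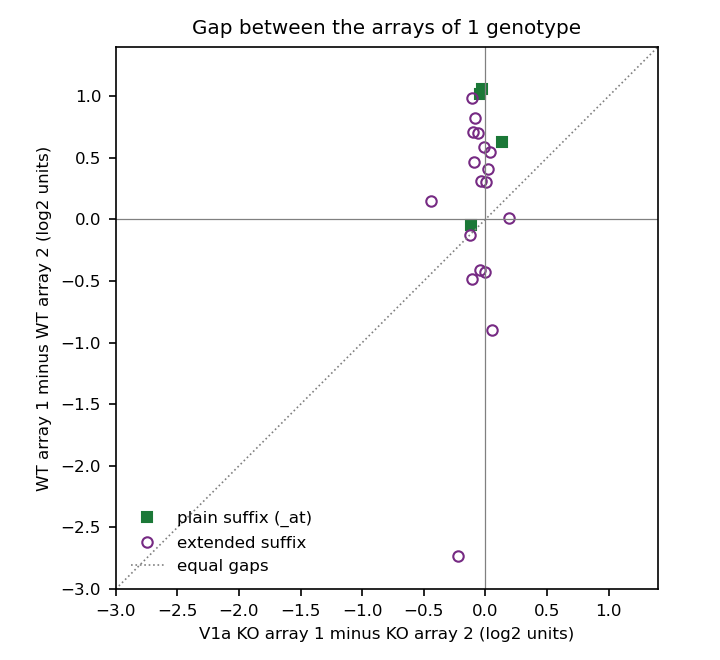
For each of the 22 tested probe sets, the gap between the 2 V1a KO arrays (x axis) and between the 2 WT arrays (y axis), array 1 minus array 2 in log2 units, with plain probe sets as filled squares extended ones as open circles and a dotted line for equal gaps. The points form a tall narrow column, with KO gaps of at most 0.44 in size and WT gaps from -2.73 to 1.06.

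The 4-array profile of the plain probe sets, each centred on its own mean, had a median of -0.11 and -0.05 on the KO arrays, against 0.59 and -0.17 on the WT arrays. The genes nearest to it by root mean square distance over the 4 arrays were Wwc1, Fars2, Akt1, Blmh and Mycbp2, at 0.0635 to 0.0655. Within 0.1 log2 units lay 364 of 10100 other genes (3.60%).

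Further genes of the pathway were followed with the brightest tested probe set per gene. Of 50 listed genes 38 were named on the array and 27 tested. Of these 27, 19 had a lower KO mean, beside 5660 of 10110 genes. Without WT array 1 this held for 15, beside 4379 of 10110. The median was -0.22, beside -0.05 over 10110 genes. None passed the adjusted test, and 2 of the 27 had an unadjusted p under 0.05, beside 5.06% of 10110 genes. The median was -0.0061 without WT array 1 and -0.46 without WT array 2, beside 0.04 and -0.15 over all genes.

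Among genes that load class I peptides the largest difference was that of Calr. Calr encodes calreticulin, a chaperone of the class I loading complex and of many other glycoproteins. It read 12.13 and 12.16 in KO, against 12.88 and 12.76 in WT, with both KO arrays below both WT arrays. The difference was -0.68 (SE 0.16, adjusted p 0.794 in limma), its other 2 probe sets gave -0.68 and -0.78, and without WT array 1 it was -0.62.

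Tap2, the partner subunit of Tap1, read 7.08 and 7.12 in KO, against 7.74 and 7.24 in WT, a difference of -0.39 (SE 0.24), which was -0.14 without WT array 1. Of the 6 loading and trimming genes 5 had a lower KO mean, beside 5660 of 10110 genes. Both KO arrays lay below both WT arrays in 4, beside 20.5% of 10110 genes. WT array 1 was the highest array on 4 of the 6, beside 5009 of 10110. Their median was -0.34 with all arrays and -0.07 without WT array 1, with 5 of 6 still lower. The exception in direction was Canx, the chaperone calnexin, at 0.51 (SE 0.38) and 0.026 without WT array 1, with other probe sets at 0.15 and -0.15. Erap1, the peptide-trimming aminopeptidase, differed by -0.34 on 1 probe set, or -0.11 without WT array 1, and by 0.45 on another.

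The third immunoproteasome subunit Psmb10 read 7.33 and 7.25 in KO, against 7.83 and 6.75 in WT, a difference of 0.0030 and of 0.54 without WT array 1, with the KO arrays between the WT arrays as for Psmb9. Psme1, a subunit of the proteasome activator PA28, differed by -0.21 (SE 0.23), and by 0.014 without WT array 1. The constitutive subunits that the immunoproteasome replaces gave lower KO means in 3 of 3, beside 5660 of 10110 genes. Psmb5 differed by -0.48 (SE 0.28) and Psmb7 by -0.30 (SE 0.19). These were -0.16 and -0.15 when WT array 1 was left out.

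Nonclassical class I relatives went both ways, with 2 of 5 lower, beside 5660 of 10110 genes. Cd1d1 differed by 0.82 (SE 0.74), but by -0.17 without WT array 1, and by -0.20 on its other probe set with all arrays. H2-M3, which presents formylated peptides, read 5.66 and 5.79 in KO, against 5.28 and 4.65 in WT, a difference of 0.76 (SE 0.28). Both KO arrays were above both WT arrays. Hfe, an iron-regulating relative, differed by -0.61 (SE 0.33), and KO array 1 alone held most of it: without that array the difference was -0.25. Its other probe set read 3.12 and 5.61 in KO, against 6.04 and 5.95 in WT, a difference of -1.63, with KO array 1 again the lowest.

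For class II, H2-Eb1, the I-E beta chain, and H2-DMa, a chain of the peptide editor, differed by -0.24 (SE 0.23) and -0.22 (SE 0.24), and by -0.0048 and 0.024 without WT array 1. Of the 4 processing enzymes 3 had a higher KO mean, beside 4439 of 10110 genes. Ctss, a protease that trims the invariant chain, read 11.39 and 12.02 in KO, against 10.64 and 11.12 in WT, a difference of 0.83 (SE 0.33). Ifi30, a thiol reductase of lysosomes, differed by -0.50 (SE 0.20).

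Of the factors that act at MHC promoters 5 of 5 had a lower KO mean, beside 5660 of 10110 genes, and WT array 1 was the highest array on each. When that array was left out 3 of 5 were lower, with a median of -0.02, beside 4379 of 10110 genes. Rfxap, a subunit of the RFX complex, differed by -0.25 and by 0.13 without WT array 1, and its other probe set by 0.07 with all arrays. Rfxank, a subunit of the same complex, which binds the X box of MHC promoters, read 5.77 and 5.72 in KO, against 6.72 and 6.43 in WT, with the genotypes apart. The difference was -0.83 (SE 0.19, adjusted p 0.794 in limma), and -0.68 without WT array 1. Its reading has the _s_at suffix. Irf1, an interferon-induced factor, differed by -0.45 (SE 0.28) and by -0.15 without WT array 1, and Ciita, the class II coactivator, lay under the filter.

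**Figure D4:**
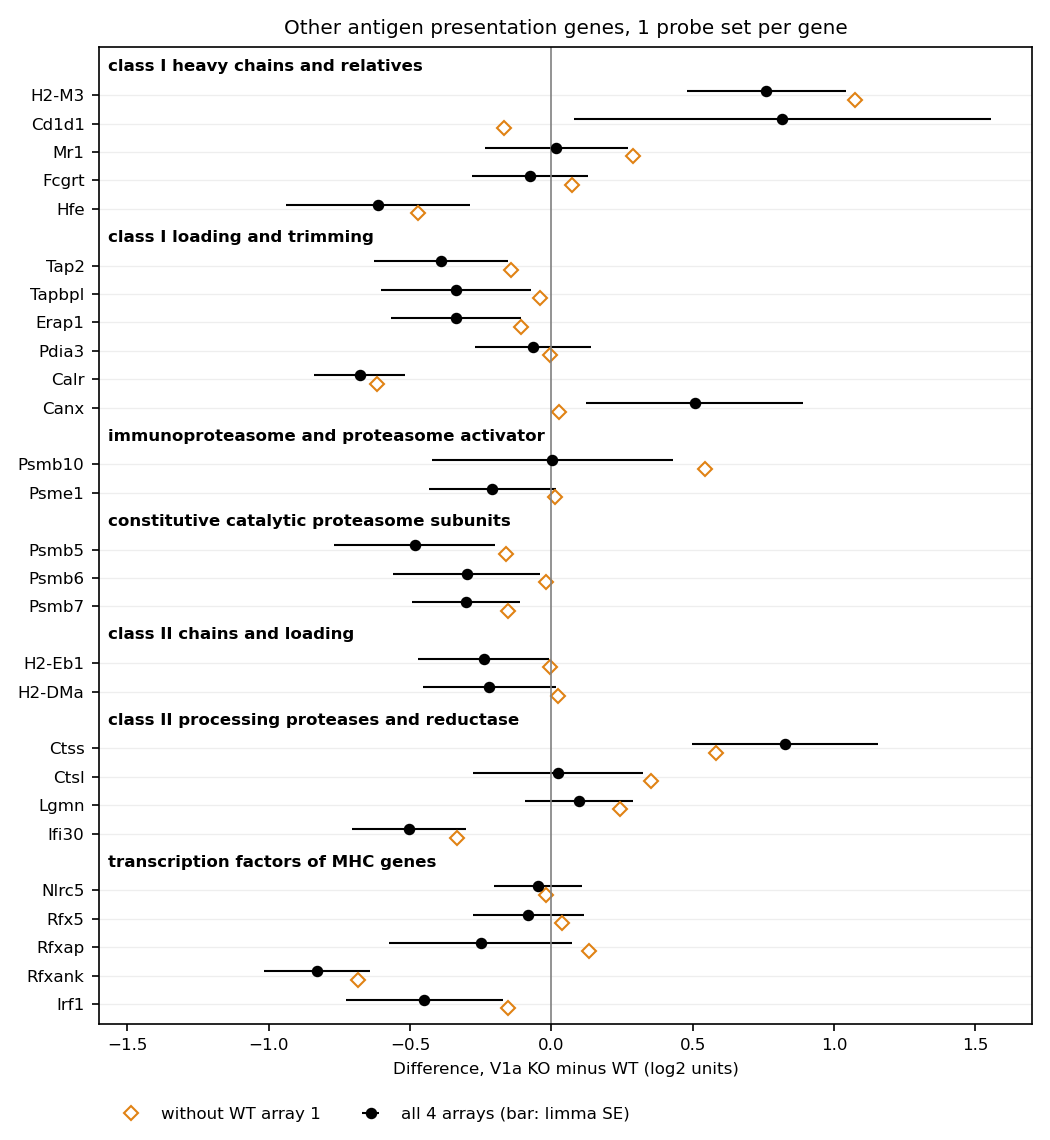
Difference in log2 units, V1a KO minus WT (x axis), for 27 further antigen presentation genes (rows, grouped by role), with all 4 arrays (black circles, bars are limma's standard error) and without WT array 1 (orange diamonds). Calr, Rfxank, Hfe and Ifi30 stay left of 0 and H2-M3 and Ctss right of 0 in both. Among others, Tap2, Erap1, Irf1 and the constitutive proteasome subunits also stay left of 0 but move towards it.

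Cells that could carry class II RNA were checked through their markers. All 12 macrophage markers were tested, with mean levels of 7.42 and 7.81 on the KO arrays, against 7.29 and 7.40 on the WT arrays. A lower KO mean was seen in 7 of 12, or 4 of 12 without WT array 1, beside 5660 and 4379 of 10110 genes. The median differences were -0.03 and 0.13. Lyz2, a lysozyme, read 9.94 and 10.99 in KO, against 10.45 and 9.87 in WT. The complement gene C1qb read 10.46 and 10.54 in KO, against 6.31 and 9.97 in WT, so WT array 1 was far below the others there. This reading has the _x_at suffix, and it lowers the mean level of WT array 1. The related complement genes did not share it. C1qa read 8.26 and 8.62 in KO, against 8.38 and 8.21 in WT. C1qc read 6.91 and 7.34 in KO, against 7.19 and 6.53 in WT. Cd68 also had WT array 1 lowest, with 6.10 and 7.14 in KO, against 5.17 and 5.84 in WT. Both KO arrays lay above both WT arrays in 2 of the 12 markers, beside 1733 of 10110 genes. They lay below both in 2 of the 12, beside 2074 of 10110 genes.

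Of 5 dendritic cell markers on the array only Zbtb46 was tested, with a difference of 0.52 (SE 0.32), or 0.14 without WT array 1, and the others read at most 4.67. Of 5 B cell markers only Ighm, the mu heavy chain of immunoglobulin, was tested, and the others read at most 2.45. Ighm read 9.65 and 9.39 in KO, against 8.85 and 5.98 in WT, a difference of 2.10 (SE 1.07), with WT array 2 far below the rest. All 6 T and NK cell markers read at most 3.02. The 7 endothelial markers had mean levels of 7.20 and 7.13 in KO, against 7.45 and 6.84 in WT, with Emcn at 0.06 and Tek at 0.20. WT array 1 was the highest array on 6 of these 7, beside 5009 of 10110 genes.

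Cortex markers gave mean levels of 12.92 and 12.88 in KO, against 12.99 and 13.01 in WT (Star 0.03, Hsd3b1 -0.12), and medulla markers 12.19 and 11.33 in KO, against 12.38 and 11.56 in WT (Chgb 0.02, Chga -0.06). Adipocyte markers gave 6.57 and 8.79 in KO, against 8.96 and 7.92 in WT (Fabp4 -0.03, Adipoq -0.26). Among them Ucp1, the uncoupling protein of brown adipocytes, had 2.80 and 5.91 in KO, against 10.05 and 7.24 in WT, a difference of -4.29 (SE 1.54) and of -2.89 without WT array 1, while Retn differed by 0.76 (SE 0.85). Of 5 liver markers only Serpina1b was tested, at -5.28 on an _x_at probe set. It read 2.30 and 2.30 in KO, the array floor, against 7.97 and 7.20 in WT, and passed the filter through the WT arrays only. The other 4 liver markers read up to 8.95 on single arrays. The part of these cell types in the antigen presentation readings was not tested.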

How the data were processed

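The authors deposited log2 expression values per probe set and sample, from 1 Affymetrix Mouse Genome 430 2.0 array each; GCRMA as part of Bioconductor 3.14 produced them, per the labels' protocols and also the submitters' notes on processing. GCRMA models background from probe sequence, and weak probe sets gather at a shared floor. The log2 scale was taken from the range of the deposited values, 2.30 to 14.9. The sources used here give no package version. Values were used as deposited, 64 control probe sets were left out, and the number of arrays limits the precision.

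Probe sets were named from the platform annotation, and all 32 of the 10 genes matched GRCm38.p6 by gene ID. Across the series 34945 probe sets had 1 gene, 932 several and 9160 none. KO was compared with WT by limma 3.58.1 in R 4.3.3 (lmFit, eBayes, genotype only, 2 residual and 1.73 prior degrees of freedom), adjusted over 17228 probe sets. The script was tested on simulated data. SE is limma's moderated standard error. Named were all probe sets of the 10 genes, per pathway list the genes past either threshold or, with none, the 2 with the smallest p, per marker list the 2 brightest, and the 5 genes with the nearest profile. Other genes and probe sets were named after their values were seen. The genes and lists were chosen with earlier results of these data known. Alternatives were 2 other filters, 2 normalizations, another variance model, a fit on plain probe sets, the replicate numbers as blocks and leaving out each array.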

Additional observations from a re-analysis of the deposited data

How the results depend on the processing

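None of the 22 probe sets passed an adjusted p of 0.05 in limma under any of 11 alternatives, the smallest adjusted p being 0.0732, without WT array 2, and 0.417 without WT array 1. A genotype left with 1 array takes its spread from the other genotype, by assumption. Over all probe sets the count past the adjusted threshold was 0 with all 4 arrays and 2 with a filter at 6 log2 units, with median centring and with plain probe sets only. The count past the unadjusted threshold was 144, against 78 with no filter, and ran from 25 to 1497 leaving out each array in turn, the highest without WT array 2 and the lowest without KO array 1 (30 without KO array 2). Leaving out each array moved the plain median between -0.66 and 0.10, the extended median between -0.49 and -0.10, the median of the other pathway genes between -0.46 and -0.0061, and the count of the 22 with KO arrays below WT arrays, 10 with all 4, between 11 and 16, the last without WT array 2. The count with KO arrays below WT arrays could only stay or rise, because leaving out an array removes a condition. Its rise is therefore no check, and the share over all tested probe sets was not taken in these settings. The leave-out alternatives for these counts were chosen after seeing the data. The median of the other pathway genes was -0.09 with the mean over a gene's probe sets. No sign turned in 133 comparisons with the other alternatives, but only the 2 normalizations could have turned one. The other filters, the variance model, the fit on plain probe sets and the replicate block leave a difference unchanged by construction. A sign turned in 11 of 88 comparisons that left out an array, 10 of them without WT array 1. The ranges were -0.0042 to 0.48 for H2-D1 1451683_x_at, -0.205 to 0.22 for B2m 1449289_a_at, -0.65 to 0.38 for Tapbp, -0.67 to 0.38 for Psmb9, -0.13 to 0.76, -0.20 to 2.53 and -0.012 to 0.11 for H2-Aa 1438858_x_at, 1443783_x_at and 1452431_s_at, -0.64 to 0.057 and -0.81 to 0.020 for H2-Ab1 1450648_s_at and 1451721_a_at, and -0.60 to 0.11 for Cd74. The cause was not tested. With the replicate block, 126 probe sets passed the unadjusted threshold and 0 the adjusted one, and no call on the 22 changed. Same-numbered arrays deviated together at a correlation of 0.154, but 2 pairs do not show that the numbers pair the arrays.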

Other observations

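MHC readings annotated to several genes at once, of class I or class II, were kept out of the comparison. They were chosen after their values were seen. Of 15 probe sets annotated to several genes with at least 1 H2 gene among them, 8 were tested, and 2 passed the unadjusted threshold (p under 0.01, at least 2-fold), beside 0.836% of all tested. Each is annotated to 2 heavy chain genes of the Q region, which encodes nonclassical class I molecules, and which of the genes is read cannot be told. The probe set 1418536_at read 5.71 and 5.93 in KO, against 7.05 and 6.89 in WT, a difference of -1.14 (SE 0.18, adjusted p 0.782 in limma). The probe set 1431008_at read 6.14 and 6.32 in KO, against 7.72 and 7.21 in WT, a difference of -1.23 (SE 0.25, adjusted p 0.794 in limma).

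On both, each KO array lay below each WT array, and the differences were -1.07 and -0.98 without WT array 1 and -1.22 and -1.49 without WT array 2. The probe set 1447260_at, annotated to 3 genes, read 3.27 and 3.24 in KO, against 4.15 and 4.22 in WT, a difference of -0.93 (SE 0.16). It passed the filter of 4 log2 units through the WT arrays only, which favours a lower KO reading. Of probe sets annotated to several genes of the T region, 1449556_at differed by -0.11 (SE 0.34) and 1449875_s_at by 0.10 (SE 0.32). The probe set 1424948_x_at, annotated to both H2-K1 and H2-D1, read 9.28 and 9.36 in KO, against 9.33 and 9.54 in WT, so the genotypes overlapped. Its difference was -0.12 (SE 0.17), or -0.22 without WT array 1 and -0.015 without WT array 2.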
